A study of Homo sapiens with 8 samples.

Results

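This comparison set SUM159 cells recovered from bleomycin-treated mouse lungs against ITGB4-high SUM159 cells, gene by gene, with 5 of the 8 libraries of the series. SUM159 is an established human triple-negative breast cancer line. The ITGB4-high cells (2 libraries) had been grown in dishes, and the labels give them no treatment. The lung-recovered cells (3 libraries) were of genotype ITGB4 low, all from clone 1, and labelled as treated with bleomycin. Per the labels' protocols, these cells had been injected through the tail vein of mice, which then received bleomycin through the trachea. Lungs were dissociated at the end point, the suspension was kept in dishes overnight, and cells positive for tdTomato, a red fluorescent protein, were sorted by flow cytometry before RNA was extracted. The libraries were chosen by their labels alone, and no measured value entered the choice. The remaining 3 libraries, of dish-grown ITGB4-low clone 1, did not enter this fit, and their levels are given only to show where the same clone stood in a dish. Origin from 1 clone, passage through the lung, bleomycin, dissociation and sorting separate the groups all at once, so what each contributed to a difference cannot be told apart. Replicates are labelled as biological without naming animals or cultures, and p-values therefore reflect only how much these samples vary, which may be technical.

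Integrin beta 4, the product of ITGB4, pairs with integrin alpha 6 and binds laminin-332. Together they form the hemidesmosome, the junction that ties basal epithelial cells to the basement membrane and to their keratin filaments. Tumour cells can hold basal epithelial and mesenchymal genes at the same time, a mixed state of the epithelial-mesenchymal transition (EMT). Bleomycin breaks DNA, and in the mouse lung it is used to provoke inflammation and later fibrosis. The series title places the study at inflammation, dormant cancer cells and this epithelial-mesenchymal state.

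Of 58336 genes in the table, 14894 had enough reads to be tested, and these held 99.9% of the counts of the 5 libraries. The libraries held 27218800 and 25923890 counts in ITGB4-high cells and 23657399, 21031271 and 26304317 in lung-recovered cells, with 1.16 to 1.74% from mitochondrial genes. On principal components of log2 values the groups parted along the first axis, with 86% of the variance, and the next axis held 5.6%. Levels are given as CPM, read counts scaled to the size of each library, which compare libraries for 1 gene and not genes with each other. The test was edgeR's quasi-likelihood F test with Benjamini-Hochberg adjustment over all genes tested, and a gene is called higher or lower where its adjusted p is under 0.05. By this rule 4021 genes were higher in lung-recovered cells (27.0% of those tested) and 3856 were lower (25.9%), 7877 in all (52.9%). Percentages beside list counts below are of the tested members, and these shares are their background. Most of these differences were small: the called genes had a median absolute log2 fold change of 0.42.

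At 2-fold or more, the balance was uneven, with 1185 genes higher (7.96% of those tested) and 388 lower (2.61%). Of the 1185 higher genes, 672 were under 1 CPM in ITGB4-high cells and 342 reached 10 CPM in a group. Of the 388 lower genes, 215 were under 1 CPM in lung-recovered cells and 106 reached 10 CPM in a group. Protein-coding genes made up 1004 of the higher and 268 of the lower genes. For 8696 genes (58.4%) the 95% interval of the fold change lay within 1.5-fold either way, which includes 4042 called genes. A further 2363 genes were neither called nor held within 1.5-fold. The groups' libraries were fully separate for 10026 genes (67.3%), so non-overlap of a single gene is the common case here.

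**Figure D1:**
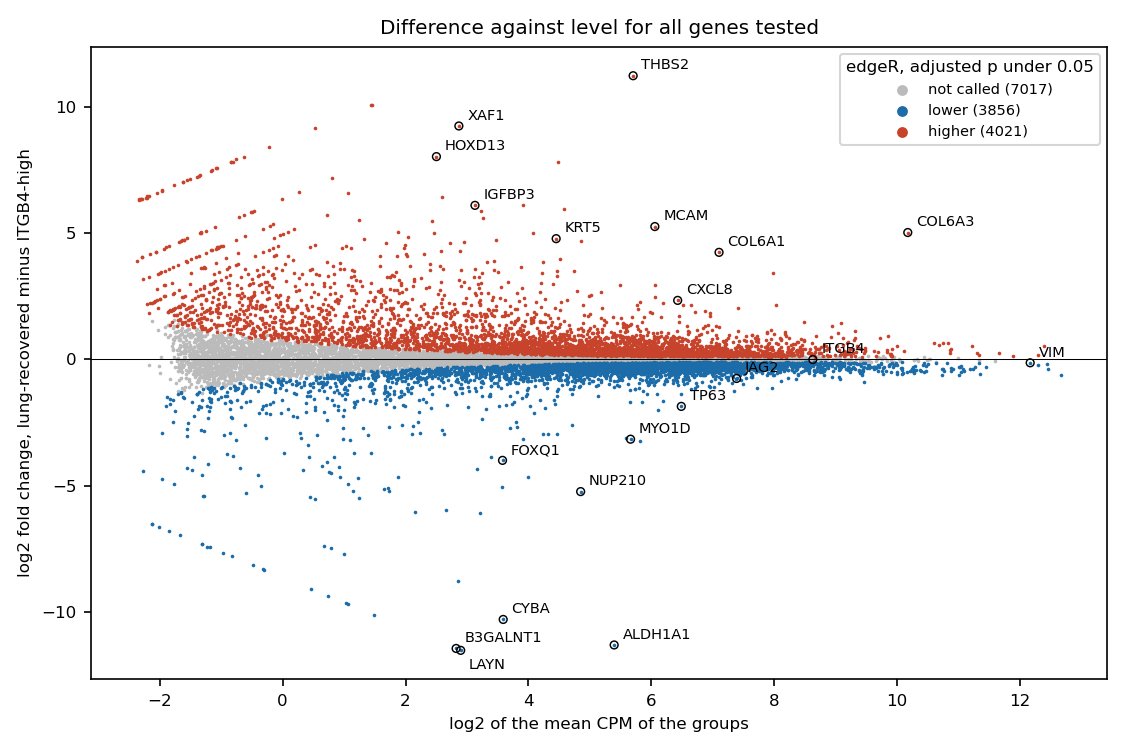
The vertical axis gives the log2 fold change of each of the 14894 genes tested, lung-recovered minus ITGB4-high, and the horizontal axis the log2 of the mean CPM of the groups. Red points are the 4021 genes called higher, blue points the 3856 called lower and grey points the 7017 not called by edgeR. Diagonal streaks are genes with 0 or a few counts in a group, whose fitted fold depends on the prior count. ITGB4 sits on the zero line, and THBS2 and ALDH1A1 lie at opposite edges.

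The widest differences were in genes with next to no reads in 1 of the groups. ALDH1A1 (chr9:72900662-73080442) encodes an aldehyde dehydrogenase whose activity marks stem-like cells of the breast. It stood at 78.5 and 89.8 CPM in ITGB4-high cells and at 0, 0.0473 and 0.0376 CPM in the lung-recovered libraries. The groups were far apart: 4399 counts in ITGB4-high cells faced 2 counts in lung-recovered cells, a ratio of 3010 with a 95% counting interval of 833 to 24862. CYBA (chr16:88643283-88651152), a membrane subunit of the NADPH oxidase, went from 24.1 ± 1.34 CPM (SD, n = 2) to 1 count in 3 libraries, a ratio of 1724 (309 to 68158). B3GALNT1 (chr3:161083883-161105384), which makes the sugar chain of globoside, was at 14.2 and 14.1 CPM and then at 0 counts in all 3 lung-recovered libraries. Against a floor of 3 counts over the group it was at least 338-fold lower. LAYN (chr11:111540280-111561745), a hyaluronan receptor, also had 0 counts there, from 15.9 and 13.9 CPM, and was at least 356-fold lower. SEMA3E, a secreted guidance factor, fell from 14.1 and 14.8 CPM to 2 counts, a ratio of 517 (143 to 4274). All 5 were near 0 in dish-grown clone 1 cells too, with 2 counts of ALDH1A1, 3 of SEMA3E and none of CYBA, B3GALNT1 and LAYN.

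In the other direction, THBS2 (chr6:169215780-169254044), the matrix glycoprotein thrombospondin 2, had 2 counts in the ITGB4-high libraries together and 104, 105 and 103 CPM in the lung-recovered libraries, a ratio of 2725 (754 to 22505). The lung-recovered libraries lay close together, and dish-grown clone 1 cells were lower at 8.79 ± 0.767 CPM (SD, n = 3). XAF1 (chr17:6755447-6775647), an interferon-inducible partner of the apoptosis inhibitor XIAP, went from 1 count to 15.1, 12.8 and 15.9 CPM, a ratio of 769 (138 to 30421). It was at 0.2004 ± 0.155 CPM in the dish-grown clone. HOXD13 (chr2:176092891-176095938), a homeobox gene of limb patterning, had 2 counts in ITGB4-high cells against 10.7, 11.4 and 11.7 CPM, a ratio of 296 (81.7 to 2448). Unlike THBS2 and XAF1, HOXD13 was as high in dish-grown clone 1 cells, at 12.3 ± 0.401 CPM. CX3CL1, a membrane-bound chemokine named here after its values were seen, had 0 counts in ITGB4-high cells and 5.997, 5.62 and 4.77 CPM in lung-recovered cells, at least 94.8-fold higher, with 1 count in the dish-grown clone. Counting intervals and floors cover counting error only.

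The bases upstream of the start site of these near-silent genes are shown for their CG content, since CG content separates the main classes of human promoters. Each line is the 250 bases before the start site in RefSeq (GRCh38.p14), 5′ to 3′ on the gene's strand, with every CG in capitals. B3GALNT1 is chr3:161105350-161105599 (minus strand), CYBA chr16:88651054-88651303 (minus strand), ALDH1A1 chr9:72953054-72953303 (minus strand), THBS2 chr6:169253847-169254096 (minus strand), XAF1 chr17:6755796-6756045 (plus strand) and HOXD13 chr2:176092471-176092720 (plus strand). The RefSeq table used held no LAYN entry.
B3GALNT1: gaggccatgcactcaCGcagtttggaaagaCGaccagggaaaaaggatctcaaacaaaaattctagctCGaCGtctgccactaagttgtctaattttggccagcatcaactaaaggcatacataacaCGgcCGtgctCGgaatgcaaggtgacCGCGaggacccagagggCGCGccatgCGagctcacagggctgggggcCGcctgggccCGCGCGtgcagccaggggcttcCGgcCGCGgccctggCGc
CYBA: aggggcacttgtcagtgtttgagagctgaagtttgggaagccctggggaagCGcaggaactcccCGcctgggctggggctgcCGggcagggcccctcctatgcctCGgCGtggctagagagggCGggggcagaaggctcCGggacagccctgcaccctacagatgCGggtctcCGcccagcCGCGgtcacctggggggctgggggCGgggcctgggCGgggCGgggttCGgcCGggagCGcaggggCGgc
ALDH1A1: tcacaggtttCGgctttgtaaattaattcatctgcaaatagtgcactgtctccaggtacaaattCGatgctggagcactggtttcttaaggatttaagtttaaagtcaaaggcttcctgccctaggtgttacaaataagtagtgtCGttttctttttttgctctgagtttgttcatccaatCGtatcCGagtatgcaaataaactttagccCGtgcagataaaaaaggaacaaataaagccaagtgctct
THBS2: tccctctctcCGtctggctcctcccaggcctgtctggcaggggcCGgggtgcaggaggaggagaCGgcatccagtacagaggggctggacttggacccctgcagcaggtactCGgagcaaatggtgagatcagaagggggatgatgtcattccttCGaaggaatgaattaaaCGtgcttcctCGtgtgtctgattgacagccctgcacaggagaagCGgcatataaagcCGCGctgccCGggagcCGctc
XAF1: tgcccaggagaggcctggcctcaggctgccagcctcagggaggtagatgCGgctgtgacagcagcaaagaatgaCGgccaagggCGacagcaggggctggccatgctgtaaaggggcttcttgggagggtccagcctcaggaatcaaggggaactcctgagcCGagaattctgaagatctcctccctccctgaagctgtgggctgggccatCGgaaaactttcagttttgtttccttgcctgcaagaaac
HOXD13: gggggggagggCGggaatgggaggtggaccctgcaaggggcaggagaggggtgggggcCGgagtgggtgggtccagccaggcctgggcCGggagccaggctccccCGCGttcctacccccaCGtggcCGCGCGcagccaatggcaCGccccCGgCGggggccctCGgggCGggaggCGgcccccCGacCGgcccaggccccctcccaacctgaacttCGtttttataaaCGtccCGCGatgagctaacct

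Counted over 300 bases, which add 50 bases past the start site, B3GALNT1 held 30 CG, HOXD13 24, CYBA 23, THBS2 17, ALDH1A1 7, XAF1 7 and SEMA3E 6. Over the 35116 promoters of the table the median was 14 CG, with 1 at the 10th and 37 at the 90th percentile. Genes near 0 in lung-recovered cells thus included promoters both above and below the median, and so did genes near 0 in ITGB4-high cells. These counts describe the reference sequence, and methylation was not measured.

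ITGB4 itself did not separate the groups. ITGB4 (ENSG00000132470, chr17:75721328-75757818) stood at 418 and 375 CPM in ITGB4-high cells and at 401, 375 and 406 CPM in lung-recovered cells. The ranges overlapped, and all 5 libraries were far above dish-grown clone 1 cells (7.29 ± 1.92 CPM, SD, n = 3). Its log2 difference of -0.01 (SE 0.05, adjusted p = 0.8899 by edgeR) had a 95% interval of -0.12 to 0.10, inside the 1.5-fold limits. The lung-recovered libraries therefore carry the genotype label ITGB4 low together with an ITGB4 level of ITGB4-high cells. A library average cannot tell more ITGB4 RNA per cell from a larger share of cells with ITGB4, and the same holds for every level below.

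Basal epithelial and hemidesmosome genes held rises and falls beside this shared ITGB4 level. Of 24 tested members of that list, 10 were higher (41.7%, against 27.0% of all genes tested) and 9 lower (37.5%, against 25.9%) in lung-recovered cells. Their median log2 fold change was 0.08, against 0.0031 over all genes tested, and leaving out 1 library moved it from -0.029 (without ITGB4-high replicate 2) to 0.13 (without ITGB4-high replicate 1). KRT5 (ENSG00000186081, chr12:52514575-52520687), a keratin of basal cells, was at 1.39 and 1.67 CPM in ITGB4-high cells and at 40.3, 46.9 and 39.4 CPM in lung-recovered cells. Every lung-recovered library exceeded the ITGB4-high libraries by more than 20-fold, with a log2 difference of 4.78 (SE 0.13, adjusted p = 1.23e-15 by edgeR). Its partner keratin KRT14 rose from 2.07 and 2.68 CPM to 7.09, 6.81 and 5.18 CPM (log2 fold change 1.41, SE 0.18). KRT15 was also higher, at 1.28 ± 0.293 CPM against 0.155 ± 0.166 CPM (SD, n = 3 and 2). Dish-grown clone 1 cells had 0.222 ± 0.117 CPM of KRT5 and 0.104 ± 0.0147 CPM of KRT14, under both other groups.

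LAMB3, the beta chain of laminin-332, the ligand of this integrin, rose from 68.4 and 63.2 CPM to 272, 263 and 283 CPM (2.05, SE 0.05). It was named after its values were seen, and the libraries of the groups did not overlap. ITGA6, the alpha partner of integrin beta 4, was at 193 and 196 CPM in ITGB4-high cells and 219, 227 and 221 CPM in lung-recovered cells, a called rise of only 0.20. COL17A1, the transmembrane collagen of the hemidesmosome, fell from 11.7 and 11.3 CPM to 4.697, 5.34 and 4.36 CPM. CDH3, the placental cadherin of basal cells, was under 1 CPM in all 5 libraries and called higher (2.61, SE 0.71).

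TP63 (ENSG00000073282, chr3:189631416-189897279), the transcription factor that keeps basal epithelial identity, was at 134 and 148 CPM in ITGB4-high cells and only 34.1, 45.98 and 36.2 CPM in lung-recovered cells. The lung-recovered libraries were all below the ITGB4-high libraries and all above dish-grown clone 1 cells (7.93 ± 1.92 CPM), with a log2 difference of -1.87 (SE 0.08, adjusted p = 9.90e-13 by edgeR). S100A2, a calcium-binding protein of basal cells, fell likewise, from 95.1 and 102 CPM to 36.02, 42.1 and 35.3 CPM, against 5.38 ± 0.244 CPM in the dish-grown clone. Thus KRT5 and KRT14 were above the ITGB4-high level while TP63, S100A2 and COL17A1 were below it in the same libraries.

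**Figure D2:**
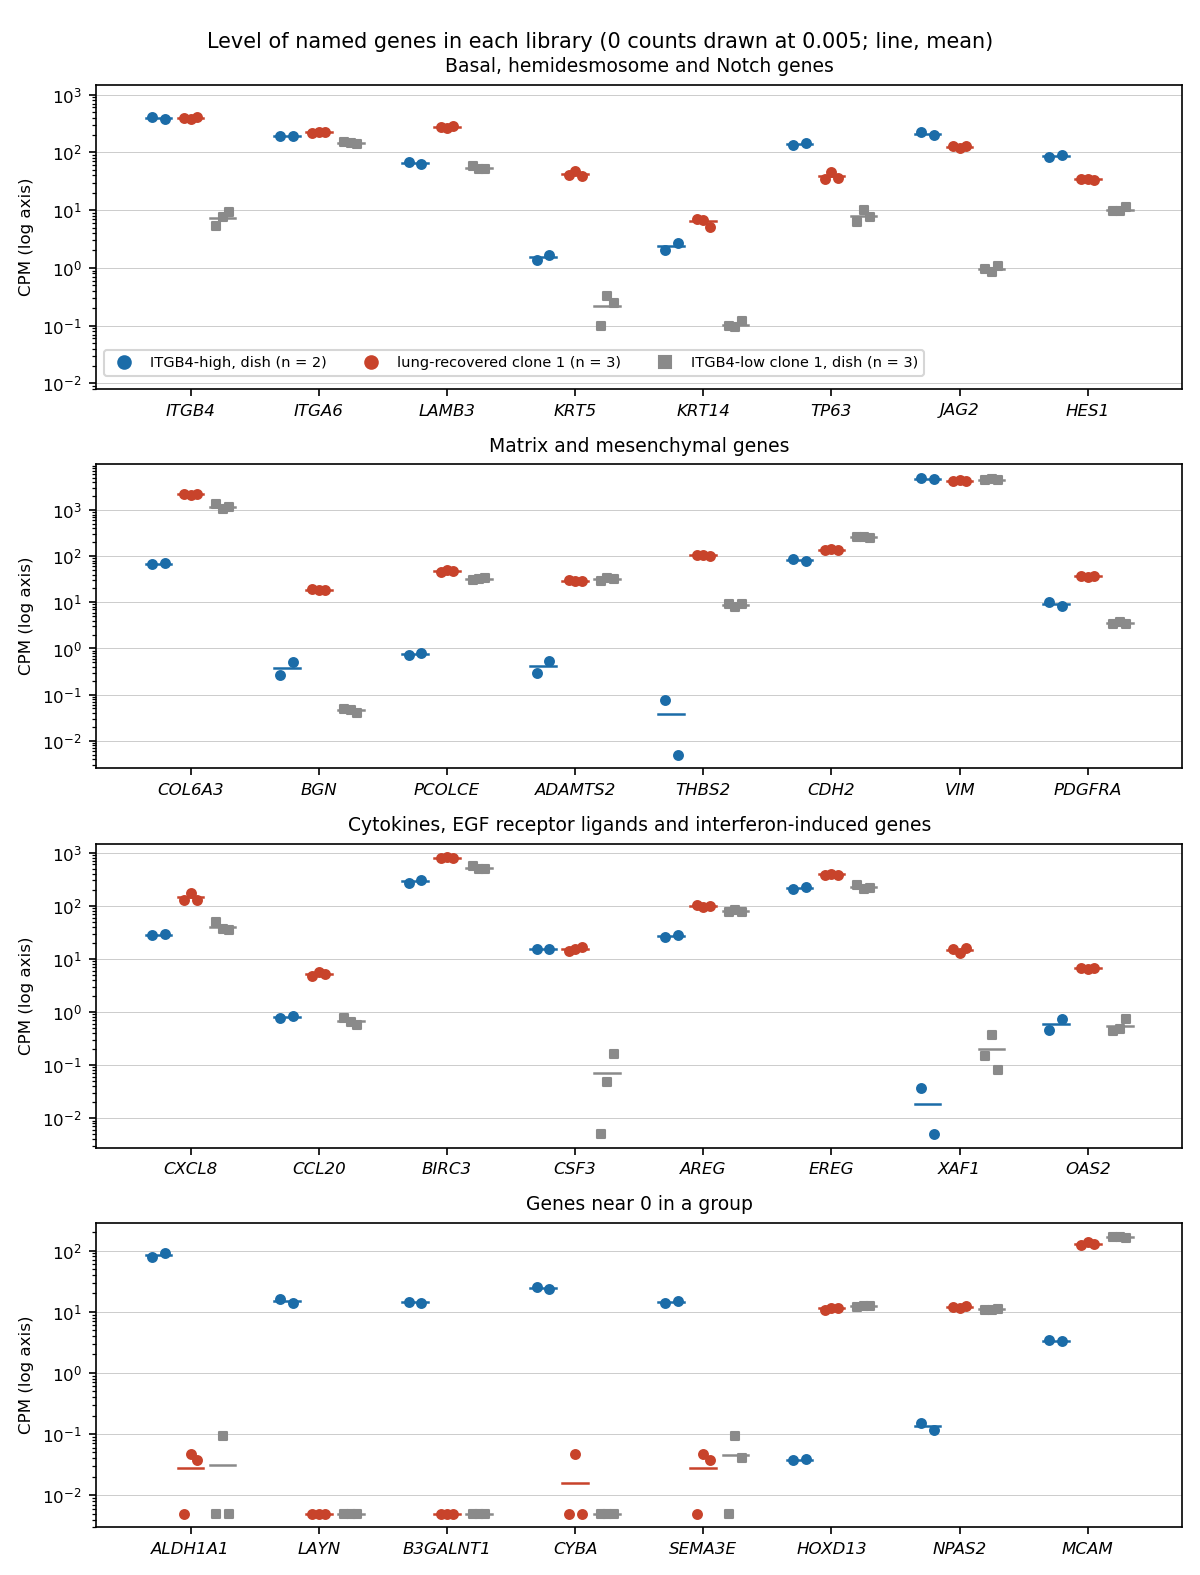
Points give the CPM of named genes in each library on log axes: blue circles are the 2 ITGB4-high libraries, red circles the 3 lung-recovered libraries and grey squares the 3 dish-grown ITGB4-low clone 1 libraries, and lines are group means. ITGB4 is level in blue and red, KRT5, COL6A3 and BGN are higher in red than in blue, and the red points of TP63, JAG2 and HES1 lie below blue and above grey. A library with 0 counts is drawn at the foot of its panel, at 0.005.

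Epithelial junction genes were mostly higher or not called. Of 16 tested members of that list, 7 were higher (43.8%) and 2 lower (12.5%), with a median of 0.28. Without lung-recovered replicate 1 or 3, 1 was lower, and without lung-recovered replicate 2, 3 were lower. Leaving out genes of 10 Mb bins with a median log2 fold change beyond 0.3 kept 13 members. Of these, 5 were higher and 2 lower, with a median of only 0.097. Of the list's 30 members 14 were too low to test. No read of CDH1 (E-cadherin) was counted in any of the 5 libraries, and EPCAM had 2 counts in lung-recovered cells and 0 in ITGB4-high cells. CLDN1, a tight-junction claudin, rose from 55.4 and 53.9 CPM to 193, 203 and 187 CPM, a log2 difference of 1.83 (SE 0.05, adjusted p = 1.90e-15 by edgeR). All 3 lung-recovered libraries were over 3 times the ITGB4-high level, and the dish-grown clone was lower still at 33.6 ± 3.66 CPM. KRT8, a simple-epithelium keratin, rose from 81.04 ± 3.100 CPM (SD, n = 2) to 194 ± 15.4 CPM (n = 3). DSP, which links desmosomes to keratin, rose from 40.00 and 38.8 CPM to 77.9, 72.8 and 74.6 CPM, and DSG3, a desmosomal cadherin, went from 0 counts to 1.38, 2.17 and 1.58 CPM, at least 29.5-fold higher. LLGL2, a polarity gene, fell from 4.36 and 3.81 CPM to 1.17, 1.37 and 1.31 CPM (-1.67, SE 0.20). The small fall of PKP3 (-0.17, edgeR adjusted p = 0.0277) was not called without the first ITGB4-high library (-0.0701, adjusted p = 0.402) or without lung-recovered replicate 1 or 3 (adjusted p = 0.0888 and 0.0938).

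Mesenchymal genes were mostly higher in lung-recovered cells. Of 21 tested members of that list 15 rose (71.4%, against 27.0% of all genes tested) and 4 fell (19.0%, against 25.9%), with a median of 0.77. Without the first ITGB4-high library 1 of the falls, DCN, was still called, and without lung-recovered replicate 1 or 3 there were 2. BGN (ENSG00000182492, chrX:153494939-153509554), the matrix proteoglycan biglycan, stood at 0.263 and 0.505 CPM in ITGB4-high cells and at 19.3, 18.2 and 18.7 CPM in lung-recovered cells. The groups were widely apart, with a log2 difference of 5.60 (SE 0.19, adjusted p = 1.98e-14 by edgeR), and the dish-grown clone had 0.0452 ± 0.00441 CPM. MCAM, an adhesion molecule of vessels and invasive tumour cells, rose from 3.46 and 3.302 CPM to 124, 139 and 126 CPM (5.26, SE 0.09), and stood at 164 ± 3.69 CPM in the dish-grown clone. POSTN, the matrix protein periostin, rose from 0.1504 and 0.388 CPM to 7.34, 8.93 and 7.51 CPM, against 0.218 ± 0.131 CPM in the dish. The dish-grown mean was thus below ITGB4-high cells for BGN, within their range for POSTN and above lung-recovered cells for MCAM.

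Other mesenchymal genes differed less. VCAN, a large matrix proteoglycan, rose from 3.16 and 2.25 CPM to 22.4, 22.5 and 23.02 CPM, and CDH2, the mesenchymal cadherin, from 85.6 and 76.9 CPM to 138, 141 and 137 CPM (0.77, SE 0.05), in a bin of chromosome 18 with a median of 0.32. DCN, the proteoglycan decorin, fell from 6.24 and 5.44 CPM to 3.103, 2.32 and 2.52 CPM. VIM, the filament protein vimentin, was at 5008 and 4616 CPM against 4264, 4597 and 4256 CPM, a called difference of -0.14 (edgeR adjusted p = 0.0191) whose 95% interval lay within 1.5-fold. The call for VIM was lost without the first ITGB4-high library (adjusted p = 0.113) and without lung-recovered replicate 1 or 3 (adjusted p = 0.154 and 0.141).

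Markers of lung fibroblasts and smooth muscle moved with these genes in part. Their summed level ran from 58.9 to 68.8 CPM in ITGB4-high cells, from 167 to 174 CPM in lung-recovered cells and from 69.1 to 76.5 CPM in the dish-grown clone. Of the 16 markers, 5 of 7 tested were called higher (71.4%, against 27.0% of all genes tested): COL1A1, COL3A1, COL13A1, PDGFRA and PDGFRB. The 2 called lower (28.6%, against 25.9%) were DCN and ACTA2, the latter at -0.37 and only -0.24 without ITGB4-high replicate 1. Of the 16, 9 were under 1 CPM in every lung-recovered library and 2 of those were at 0 in all 3. PDGFRA, a growth factor receptor of fibroblasts, rose from 10.4 and 8.27 CPM to 37.2, 35.4 and 36.7 CPM, against 3.51 ± 0.181 CPM in the dish-grown clone. Whether other cells in the sort had a part in these levels was not tested.

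Among EMT transcription factors 7 of 12 were higher (58.3%) and 2 lower (16.7%), with a median of 0.17. TCF4 rose from 13.2 and 13.9 CPM to 28.8, 28.97 and 28.5 CPM, TWIST1 from 2.93 and 2.37 CPM to 4.45, 5.86 and 5.11 CPM (0.95, SE 0.18) and ZEB1, a repressor of epithelial genes, from 70.5 and 74.8 CPM to 101, 97.3 and 97.5 CPM (0.44, SE 0.05). TCF4 lies in a 10 Mb bin of chromosome 18 whose genes had a median of 0.36. KLF8 (-0.75) and SOX4 (-0.32) were lower. SNAI2 was at 60.3 and 68.5 CPM against 57.6, 67.8 and 60.6 CPM, overlapping and not called, with a 95% interval of -0.20 to 0.09. SNAI1 was called higher at 3.06, 3.17 and 3.005 CPM against 2.14 and 2.21 CPM (0.50, edgeR adjusted p = 0.0318), but the call was lost in each of the 5 fits that left out a library (adjusted p 0.0599 to 0.111).

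Collagen genes were mostly higher, led by collagen VI. Of 21 tested collagen genes 13 were higher (61.9%) and 3 lower (14.3%), and of those 8 rose 2-fold or more and 1 fell as far. The median was 0.28, or 0.49 without ITGB4-high replicate 2. COL6A3 (ENSG00000163359, chr2:237324003-237414375), the long chain of collagen VI, was at 66.8 and 71.04 CPM in ITGB4-high cells and at 2280.3, 2164 and 2276 CPM in lung-recovered cells. Its log2 difference of 5.02 (SE 0.06, adjusted p = 4.25e-21 by edgeR) corresponds to 32.5-fold, and the dish-grown clone was between the groups at 1192 ± 140.1 CPM. The chain COL6A1 went the same way, from 14.6 and 13.1 CPM to 253, 266 and 264 CPM (4.24, SE 0.06). So did COL6A2, named after its values were seen, from 44.1 and 42.8 CPM to 462, 456 and 461 CPM (3.40, SE 0.05). Collagen VI is a beaded filament built from such chains, and these 3 were higher together. COL5A2, a fibril collagen, went the opposite way, from 23.3 and 24.1 CPM to 4.24, 4.25 and 4.21 CPM (-2.48, SE 0.10), and the basement-membrane chains COL4A5 (-0.42) and COL4A6 (-0.48) fell slightly.

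Enzymes that process collagen were split into 13 higher (56.5%) and 5 lower (21.7%) of 23 tested (median 0.30). ADAMTS2, which trims the amino end of procollagen, rose from 0.301 and 0.544 CPM to 29.98, 29.1 and 29.7 CPM, a log2 difference of 6.12 (SE 0.16, adjusted p = 6.19e-16 by edgeR). PCOLCE, an enhancer of the cut at the carboxyl end, rose from 0.714 and 0.816 CPM to 44.9, 49.8 and 47.1 CPM (5.94, SE 0.13). In the dish-grown clone ADAMTS2 was as high (31.6 ± 1.83 CPM) and PCOLCE somewhat lower (32.01 ± 1.98 CPM). BMP1, the protease that PCOLCE enhances, fell from 54.6 and 56.3 CPM to 41.4, 44.6 and 42.3 CPM, and CRTAP, of the prolyl 3-hydroxylation complex, fell from 491 ± 19.3 to 369.9 ± 2.602 CPM. ADAMTS14, a relative of ADAMTS2, had 3 counts in ITGB4-high cells and 48 in lung-recovered cells, a ratio of 11.7 (3.77 to 58.7).

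Of 17 tested matrix proteases and inhibitors 12 were higher (70.6%) and 4 lower (23.5%), with a median of 0.87. SERPINE2, an inhibitor of serine proteases, rose from 4.699 and 3.46 CPM to 33.6, 28.5 and 36.7 CPM (3.01, SE 0.13), in a bin of chromosome 2 with a median of 0.31. The gelatinase gene MMP2, named after its values were seen, rose from 34.02 and 32.6 CPM to 149.9, 149.6 and 149.9 CPM, and TIMP3, a metalloproteinase inhibitor, from 40.2 and 41.1 CPM to 135, 132 and 134 CPM. MMP2 is a protease and the other 2 are inhibitors. PLAU, the urokinase gene, fell from 3.76 and 3.92 CPM to 1.38, 1.56 and 1.92 CPM, and ADAMTS1 from 5.71 and 5.52 CPM to 2.39, 2.79 and 2.404 CPM. MMP3 was under 1 CPM in every library.

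Most called members of the EGF receptor family were ligands. Of 9 tested members 6 were higher (66.7%) and 1 lower (11.1%). The median was 0.35, or 0.18 without ITGB4-high replicate 2 and 0.22 without lung-recovered replicate 2. Amphiregulin (AREG, chr4:74445134-74455009) was at 26.1 and 27.97 CPM in ITGB4-high cells and 101, 95.04 and 100.3 CPM in lung-recovered cells, a log2 difference of 1.87 (SE 0.06, adjusted p = 9.76e-15 by edgeR). AREG lies in a bin of chromosome 4 (70 to 80 Mb) with a median of 0.28, where 53.5% of genes were called higher. EREG, the epiregulin gene, rose from 209.8 and 225 CPM to 381, 403 and 383 CPM, EPGN, the epigen gene, from 8.76 and 8.08 CPM to 22.4, 20.2 and 21.8 CPM, and NRG1, a ligand of ERBB3 and ERBB4, from 2.48 and 2.33 CPM to 14.8, 17.4 and 13.03 CPM. No lung-recovered library fell to the ITGB4-high range for any of them, whereas TGFA, another EGFR ligand, went from 38.4 and 39.00 CPM down to 18.1, 16.9 and 19.6 CPM (-1.08, SE 0.07). In the dish-grown clone EPGN was at 0.249 ± 0.111 CPM and NRG1 at 55.7 ± 7.63 CPM. The receptor gene EGFR differed little, with 529 and 544 CPM against 612, 606 and 589.8 CPM (0.17). Genes of ERK feedback and output, which lie downstream of this receptor, were called about as often as all genes, with 7 of 21 higher (33.3%, against 27.0% of all genes tested) and 6 lower (28.6%, against 25.9%). None differed 2-fold, and the median was 0.09. PHLDA1 was the largest called rise (0.72) and the phosphatase gene DUSP7 the largest fall (-0.78), and MYC fell from 1457 ± 59.7 to 1075 ± 29.3 CPM.

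Notch genes had the lowest median of the 31 pathway and family lists, -0.63. Notch receptors on 1 cell are activated by Jagged or Delta ligands on its neighbour, and HES genes are their classic targets. Of 14 tested members 10 were lower (71.4%, against 25.9% of all genes tested) and 2 higher (14.3%, against 27.0%). The ligand JAG2 (ENSG00000184916, chr14:105140981-105168824) was at 223 and 198 CPM in ITGB4-high cells and at 127, 118 and 127 CPM in lung-recovered cells, a log2 difference of -0.76 (SE 0.05, adjusted p = 6.39e-10 by edgeR). The dish-grown clone had 0.967 ± 0.121 CPM, so JAG2 in lung-recovered cells was below the ITGB4-high level and more than 100 times that of the dish-grown clone. The target HES1 fell from 84.4 and 91.4 CPM to 34.4, 35.2 and 33.5 CPM (-1.36, SE 0.06), with 10.2 ± 0.879 CPM in the dish. HES1 lies in a bin of chromosome 3 whose genes had a median of -0.43. The ligand JAG1 and the receptor NOTCH1, both named after their values were seen, fell from 115 and 114 to 71.1, 75.5 and 69.03 CPM and from 149 and 129 to 88.3, 91.1 and 91.4 CPM. LFNG, which adds sugars to Notch receptors, fell from 5.34 and 5.59 CPM to 1.803, 2.46 and 1.61 CPM. The exceptions were the receptor NOTCH3, which rose from 9.89 and 10.7 CPM to 21.1, 22.1 and 18.8 CPM, and the coactivator MAML2, which rose from 13.3 and 12.9 CPM to 29.9, 34.9 and 28.5 CPM.

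Of 14 tested WNT ligands and inhibitors 8 were higher (57.1%) and 2 lower (14.3%), with a median of 0.50, or 0.33 without lung-recovered replicate 2 or 3. NKD2, an intracellular inhibitor, rose from 0.865 and 0.816 CPM to 6.12, 6.29 and 7.89 CPM, and DKK1, a secreted one, from 0.301 and 0.311 CPM to 2.81, 2.41 and 2.22 CPM. WNT7B went from 2 counts to 70, a ratio of 25.6 (6.82 to 215). Of 24 tested TGF-beta genes 12 were higher (50%, against 27.0% of all genes tested) and 7 lower (29.2%, against 25.9%), with a median of 0.13. Without ITGB4-high replicate 2, 9 were higher and 8 lower (median 0.059). The ligand TGFB2 rose from 1.65 and 1.79 CPM to 15.9, 17.7 and 16.04 CPM (3.26, SE 0.14) and INHBA, the activin A subunit, from 0.0752 and 0.505 CPM to 0.881, 1.47 and 1.43 CPM. The genes that fell included those induced by BMP, a related signal: ID1 from 256 and 238 CPM to 145, 168 and 144 CPM and ID3 from 245 and 245 CPM to 142, 165 and 141 CPM. BAMBI, a decoy receptor, fell as well (-0.77).

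NF-kB target and cytokine genes were mostly higher in lung-recovered cells. NF-kB is a transcription factor freed from its inhibitor when cells meet inflammatory signals, and many cytokine genes are its targets. Of 22 tested members 14 were higher (63.6%, against 27.0% of all genes tested) and 1 lower (4.5%, against 25.9%), with a median of 0.47. CXCL8 (ENSG00000169429, chr4:73740506-73743716), a chemokine that draws neutrophils, was at 27.7 and 29.2 CPM in ITGB4-high cells and 128, 175 and 128 CPM in lung-recovered cells, and at 40.05 ± 7.79 CPM in the dish-grown clone. Lung-recovered replicate 2 was the highest of the 5 libraries, and all 3 exceeded 4 times the ITGB4-high level, with a log2 difference of 2.33 (SE 0.11, adjusted p = 2.62e-12 by edgeR). CXCL8 and CXCL3, another gene of this list, lie in the chromosome 4 bin that holds AREG, with a median of 0.28. CCL20, a chemokine of lymphocytes and dendritic cells, rose from 0.752 and 0.855 CPM to 4.82, 5.53 and 5.15 CPM, in a bin of chromosome 2 with a median of 0.31, TRAF1, a signal adaptor, from 3.16 and 3.61 CPM to 11.6, 14.04 and 12.6 CPM and IL1B from 3.61 and 3.26 CPM to 5.87, 5.34 and 5.78 CPM. NFKBIA, the inhibitor that NF-kB induces, was slightly lower (-0.20, SE 0.05). Not all of the list rose, with 7 tested members not called. CSF3, the granulocyte growth factor, was not called: it was at 15.4 and 15.3 CPM and 14.3, 15.3 and 17.01 CPM, overlapping, with a 95% interval of -0.17 to 0.22, while the dish-grown clone had 0.0693 ± 0.0828 CPM.

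Promoters of the 6 genes of this list that rose 2-fold or more (CCL20, CXCL8, TRAF1, CXCL3, IL6 and BIRC3) were searched for the NF-kB consensus on both strands, in the 250 bases before the start site. The consensus was taken as GGG, A or G, any 2 bases, 2 bases of C or T, and CC. Of these 6, CXCL3 and BIRC3 held 2 matches each, IL6 and CCL20 held 1, and CXCL8 and TRAF1 held none. Over all 35116 promoters 9.96% had a match. The list was built from NF-kB target and cytokine genes, so matches can follow from its making. Its members that did not rise are not compared here. CXCL8 holds tggaatttcc, which departs from this consensus only in its first letter, so its lack of a match does not show that it lacks a site. CXCL3, chr4:74038690-74038939 (minus strand), and BIRC3, chr11:102317234-102317483 (plus strand), are shown as the genes with 2 matches, with the matches in capitals, 250 bases before the RefSeq start site (GRCh38.p14).
CXCL3: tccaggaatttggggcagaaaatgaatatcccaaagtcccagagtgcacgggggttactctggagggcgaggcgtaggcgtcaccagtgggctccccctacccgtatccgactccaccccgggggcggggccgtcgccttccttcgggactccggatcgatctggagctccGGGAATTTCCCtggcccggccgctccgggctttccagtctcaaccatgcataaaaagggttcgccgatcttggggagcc
BIRC3: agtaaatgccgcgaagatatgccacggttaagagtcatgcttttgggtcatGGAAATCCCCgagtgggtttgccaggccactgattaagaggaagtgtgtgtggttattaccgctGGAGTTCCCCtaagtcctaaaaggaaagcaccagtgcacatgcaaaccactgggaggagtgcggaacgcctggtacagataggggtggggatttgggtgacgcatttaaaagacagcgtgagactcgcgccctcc
The 2 matches of CXCL3 overlap, 1 on each strand. A match describes these letters, and binding was not measured.

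Of 31 tested interferon-stimulated genes 17 were higher (54.8%) and 3 lower (9.7%), with a median of 0.31. These genes answer interferon, the alarm signal of virus-infected or stressed cells. Beside XAF1, OAS2, which senses double-stranded RNA, rose from 0.451 and 0.738 CPM to 6.67, 6.38 and 6.69 CPM (3.46, SE 0.22), and the dish-grown clone was at 0.543 ± 0.157 CPM. MX2 went from 1 count to 48, a ratio of 35.1 (6.002 to 1414). DDX60 fell from 21.5 and 20.3 CPM to 17.1, 14.8 and 16.6 CPM, and IFIH1 (-0.32) and BST2 (-0.17) fell slightly, IFIH1 with a call that was lost when ITGB4-high replicate 2 or lung-recovered replicate 1 or 3 was left out (adjusted p 0.0856 to 0.137). XAF1 lies in the first 10 Mb of chromosome 17, a stretch with a median of 0.80. The promoters of XAF1, IFIT1 and IFIT3 were searched for the interferon response motif TTTCNNTTTC on both strands, which 3.02% of all promoters held. XAF1 had 0 matches, but it holds tttcagtttt, which departs from this motif only in its last letter. This lack of a match does not show that XAF1 lacks a site. IFIT1 and IFIT3, both named after their values were seen, had 2 matches each. As genes known to answer interferon, they may hold this motif whether or not they rose. IFIT1 rose from 0.1504 and 0.0777 CPM to 0.797, 1.04 and 1.05 CPM, and its promoter is shown as an example with the matches in capitals. In RefSeq (GRCh38.p14) these 250 bases are chr10:89392373-89392622 (plus strand).
IFIT1: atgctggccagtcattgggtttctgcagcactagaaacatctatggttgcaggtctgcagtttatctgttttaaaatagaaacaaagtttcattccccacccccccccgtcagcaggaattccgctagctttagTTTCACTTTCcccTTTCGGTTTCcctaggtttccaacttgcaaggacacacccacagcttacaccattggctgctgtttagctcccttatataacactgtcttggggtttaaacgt
Genes of MHC class I presentation differed little as a list, with 8 of 21 higher (38.1%, against 27.0% of all genes tested) and 5 lower (23.8%, against 25.9%). None differed by 2-fold, and the median was 0.08, or 0.045 without ITGB4-high replicate 2. HLA-B rose from 267 and 247 CPM to 408, 423 and 410.4 CPM (0.69, SE 0.05), while HLA-E fell from 248 and 244 CPM to 187, 188 and 185 CPM, and reads of these closely similar genes can be exchanged in counting.

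Cell-cycle lists had medians near 0. Of 48 S phase genes 15 were higher (31.3%) and 16 lower (33.3%), with a median of -0.02. Of 52 genes of G2 and mitosis 16 were higher (30.8%) and 10 lower (19.2%), with a median of 0.06 and with 6 lower when lung-recovered replicate 3 was left out. Over all genes tested 27.0% were higher and 25.9% lower. Leaving out 1 library gave medians from -0.040 to -0.0064 for S phase and from 0.0032 to 0.10 for mitosis. No member of either list differed 2-fold. For 39 of the S phase and 48 of the mitosis genes the interval lay within 1.5-fold. MKI67, the proliferation antigen, was at 368 and 372 CPM against 317, 304 and 302 CPM, a called difference of -0.27 (SE 0.04). AURKB, a mitotic kinase, rose from 34.7 and 35.5 CPM to 64.3, 68.6 and 68.96 CPM (0.94) and RPA1 from 91.5 and 87.01 CPM to 168, 188 and 172 CPM (0.98), both in the bin of chromosome 17 with a median of 0.80. MCM6, a replication helicase subunit, rose from 39.5 and 40.8 CPM to 73.3, 82.9 and 71.1 CPM, in a bin with a median of 0.04. UNG, E2F1 and CDT1 were the largest falls of the S phase list (-0.92, -0.86 and -0.77).

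CDKN1A, the cell-cycle inhibitor p21, fell from 137 and 131 CPM to 92.9, 89.04 and 86.6 CPM (-0.58, SE 0.05). EDA2R, a receptor of the TNF family, fell from 3.95 and 5.13 CPM to 0, 0.189 and 0.3005 CPM, with no reads in 1 of the lung-recovered libraries.

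Of 18 dormancy-associated genes 8 were higher (44.4%) and 3 lower (16.7%), with a median of 0.13. DDR2, a collagen receptor, had the largest difference, from 2.44 and 1.83 CPM to 55.8, 55.6 and 56.5 CPM (4.71, SE 0.10), and it was higher still in the dish-grown clone (95.6 ± 6.08 CPM). Its relative DDR1 fell from 43.2 and 43.1 CPM to 34.7, 36.3 and 33.99 CPM. THBS1, the thrombospondin tied to dormancy, was at 442 and 361 CPM against 306, 365 and 305 CPM, groups that overlapped, with a call (-0.31, edgeR adjusted p = 0.002003) that was lost without the first ITGB4-high library (-0.16, adjusted p = 0.0880). Of 18 stem-like surface and ALDH genes 8 were higher (44.4%) and 3 lower (16.7%), with a median of 0.16, or 5 lower without lung-recovered replicate 2. The median was 0.053 without ITGB4-high replicate 1 and 0.28 without ITGB4-high replicate 2. CD44 rose from 445 and 445 CPM to 659, 680.2 and 646 CPM and ITGB3 from 4.89 and 3.65 CPM to 12.1, 14.3 and 12.02 CPM, whereas CD24 fell from 1.203 and 1.32 CPM to 0.335, 0.331 and 0.3005 CPM and ALDH1A1 was near 0 as described. ALDH7A1, another aldehyde dehydrogenase, rose from 3.01 and 2.49 CPM to 9.02, 10.49 and 8.98 CPM.

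**Figure D3:**
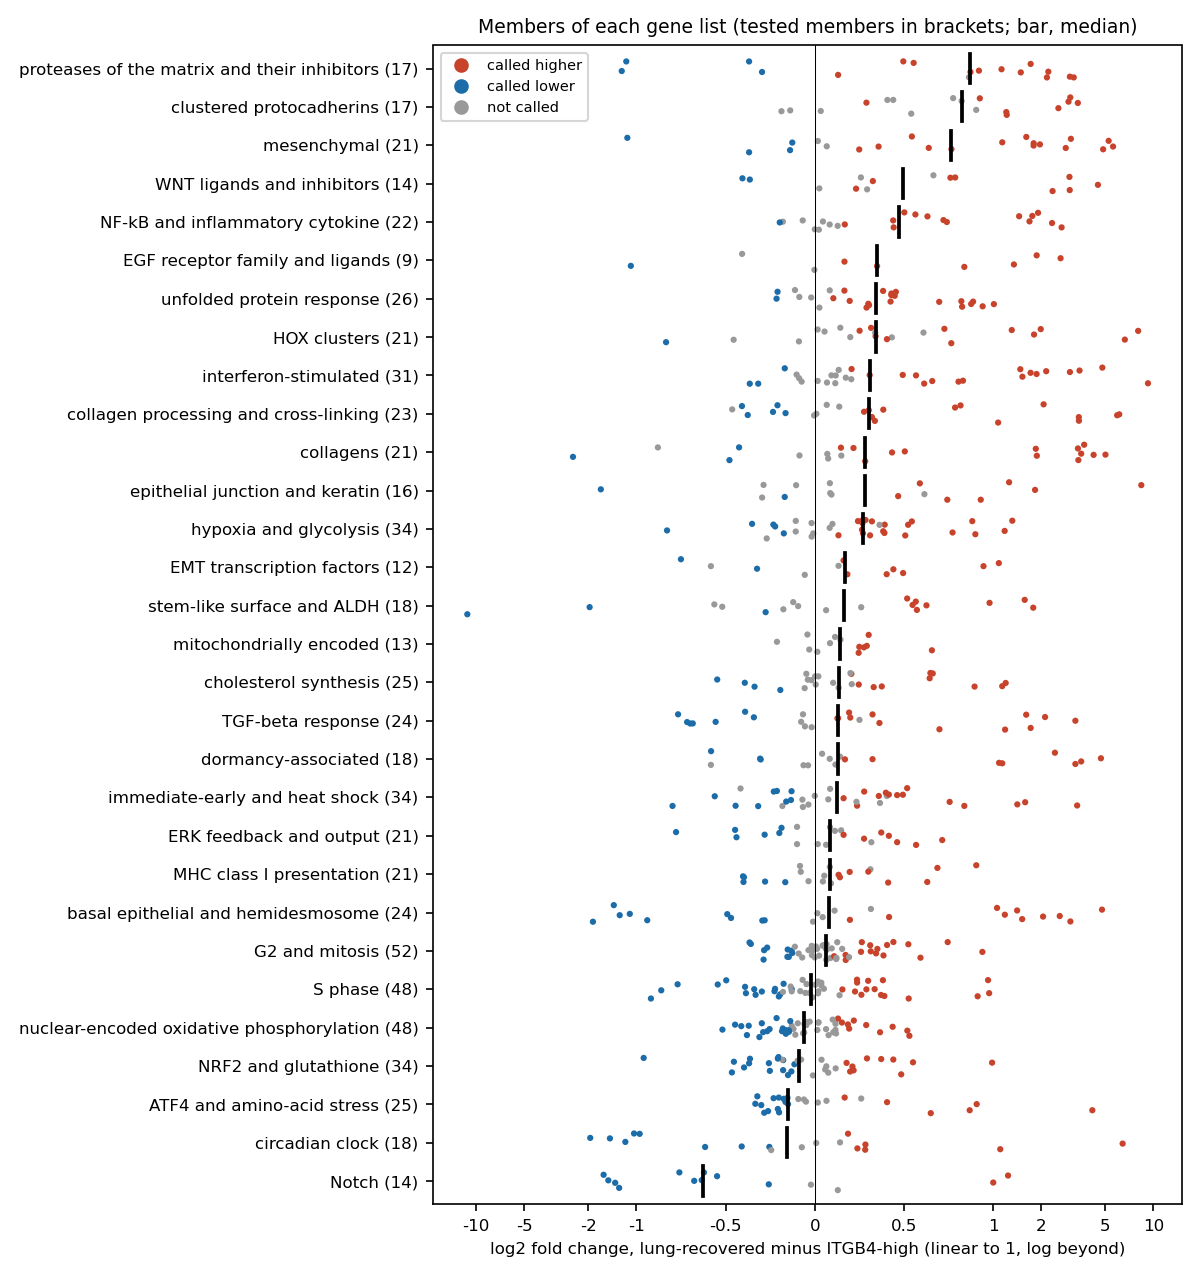
Each point is a tested member of a gene list, placed by its log2 fold change, lung-recovered minus ITGB4-high, on an axis that is linear to 1 and logarithmic beyond. Red points were called higher, blue lower and grey not called, the bar is the list's median, and the number of tested members is in brackets. Matrix proteases (median 0.87) head the plot and Notch (-0.63) is at its foot.

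Stress-related lists differed in sign. Of 26 tested genes of the unfolded protein response 19 were higher (73.1%) and 2 lower (7.7%), with a median of 0.34. The risen genes include chaperones of the endoplasmic reticulum. PDIA4, which forms disulfide bonds, rose from 174 and 165 CPM to 339.9, 346 and 338 CPM (1.01, SE 0.04) and SDF2L1 from 16.02 and 16.5 CPM to 27.8, 31.1 and 31.4 CPM, both close to the dish-grown clone (370.4 ± 14.6 and 32.2 ± 2.12 CPM). Of 25 genes of the ATF4 and amino-acid response 13 were lower (52%) and 6 higher (24%), with a median of -0.15. TRIB3 fell from 913 and 811 CPM to 694, 680.0 and 695 CPM, and VLDLR, a lipoprotein receptor, rose from 0.338 and 0.505 CPM to 6.88, 7.798 and 8.11 CPM. Of 34 hypoxia and glycolysis genes 20 were higher (58.8%) and 5 lower (14.7%), with a median of 0.27. EGLN3, an oxygen sensor, rose from 9.398 and 8.001 CPM to 21.7, 23.1 and 20.6 CPM. The glucose transporter SLC2A3 rose from 22.03 and 22.9 CPM to 54.6, 47.7 and 50.4 CPM and CA9, a carbonic anhydrase, from 8.31 and 8.51 CPM to 14.9, 17.2 and 15.2 CPM. ANGPTL4 fell from 11.3 and 8.82 CPM to 5.79, 5.81 and 5.45 CPM.

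Immediate-early and heat shock genes, which dissociation and sorting are known to induce, were split into 14 higher and 9 lower of 34 tested (median 0.12). These are 41.2% and 26.5%, against 27.0% and 25.9% of all genes tested. With lung-recovered replicate 1 left out, 5 were lower. The median was 0.23 without ITGB4-high replicate 1 and 0.072 without ITGB4-high replicate 2. EGR1 was at 38.4 and 30.1 CPM against 42.8, 54.6 and 44.7 CPM (0.46), and the AP-1 members JUN and JUND fell, JUN from 119.5 and 112 CPM to 66.5, 67.7 and 65.8 CPM. HSPA1A, a heat shock gene with near-identical copies, rose from 0.113 and 0.155 CPM to 1.22, 1.37 and 1.61 CPM and was at 1.197 ± 0.752 CPM in the dish-grown clone. Of 25 cholesterol synthesis genes 10 were higher (40%) and 4 lower (16%), with a median of 0.13, or 0.069 without ITGB4-high replicate 2. Of 34 NRF2 and glutathione genes 10 were higher (29.4%, against 27.0% of all genes tested) and 15 lower (44.1%, against 25.9%). Their median was -0.09, or -0.019 without ITGB4-high replicate 1. SREBF1 rose from 122 and 109 CPM to 208, 225 and 213 CPM in a chromosome 17 bin with a median of 0.81, and SREBF2 fell (-0.55). SOD2, the mitochondrial superoxide dismutase and an NF-kB target, rose from 1316 and 1349.8 CPM to 1935, 2022 and 1904 CPM, above the dish-grown clone (771 ± 17.6 CPM).

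Of 48 nuclear-encoded genes of oxidative phosphorylation 10 were higher (20.8%) and 18 lower (37.5%), and for 45 the interval lay within 1.5-fold. Their median was -0.06, or -0.011 and -0.10 without ITGB4-high replicate 1 or 2. Of 13 mitochondrially encoded genes 6 were higher (46.2%) and none lower by edgeR (median 0.14), with 1 lower at an unadjusted p under 0.05, while DESeq2's Wald test called 2 higher and 0 lower. These counts moved with single libraries: without the second ITGB4-high library, which had the lowest mitochondrial share (1.16%), 3 were higher and 2 lower, and without lung-recovered replicate 1, which had the highest share (1.74%), 3 were higher and 1 lower. Without lung-recovered replicate 3, 3 were higher. The median ran from 0.015 to 0.31 over the 5 fits that each left out a library. MT-ND5 was at 513 and 394 CPM against 791, 632 and 723 CPM (0.66, SE 0.09).

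Of 18 circadian clock genes 6 were higher (33.3%, against 27.0% of all genes tested) and 8 lower (44.4%, against 25.9%), with a median of -0.16. The median was -0.035 without ITGB4-high replicate 1 and -0.037 without lung-recovered replicate 2, and -0.086 or -0.079 without lung-recovered replicate 1 or 3. NPAS2 (chr2:100820152-100996829), a partner of BMAL1 that can stand in for CLOCK, was at 0.1504 and 0.117 CPM in ITGB4-high cells and 11.9, 11.5 and 12.4 CPM in lung-recovered cells, a log2 difference of 6.43 (SE 0.24, adjusted p = 1.14e-13 by edgeR). Among genes that fell were clock output factors: DBP from 4.59 and 4.89 CPM to 1.47, 1.84 and 1.84 CPM, TEF from 30.5 and 31.7 CPM to 14.3, 13.1 and 14.01 CPM, and PER3, of the negative arm, from 8.38 and 8.51 CPM to 1.55, 2.08 and 2.89 CPM. Both REV-ERB repressors, NR1D1 and NR1D2, named after their values were seen, were lower (-1.03 and -0.98), and NFIL3, which opposes DBP at shared sites, was higher (1.11). The dish-grown clone stood near the lung-recovered cells for NPAS2 (10.9 ± 0.215 CPM), PER3 (2.17 ± 0.535 CPM) and TEF (15.3 ± 2.88 CPM). The labels used here give no times of harvest.

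Homeobox genes of the HOX clusters were split into 11 higher (52.4%) and 1 lower (4.8%) of 21 tested (median 0.34), and 18 further ones were too low to test. HOXB9 rose from 5.301 and 5.87 CPM to 23.5, 20.5 and 22.2 CPM (1.98, SE 0.10), and HOXB6 went from 1 count to 171, a ratio of 125 (22.1 to 4964). HOXA3 fell from 14.7 and 12.2 CPM to 7.25, 7.37 and 8.04 CPM. Of the clustered protocadherins, cell-surface molecules encoded in tandem on chromosome 5, 8 of 17 tested were higher (47.1%) and none lower (median 0.82). With p unadjusted and under 0.05, edgeR also had 0 of them lower. DESeq2's Wald test, edgeR on all 8 libraries and the 5 fits without a library called 0 of them lower after adjustment. PCDHB6 rose from 0.602 and 0.3496 CPM to 3.82, 3.497 and 3.87 CPM, PCDHB8 from 0.226 and 0.0777 CPM to 1.76, 1.701 and 1.46 CPM and PCDHB16 from 0.451 and 0.233 CPM to 2.68, 2.98 and 2.89 CPM. For HOXB9, PCDHB6 and PCDHB8 the dish-grown clone was close to lung-recovered cells, at 19.7 ± 2.59, 2.92 ± 0.463 and 1.63 ± 0.442 CPM, and the PCDHB genes resemble each other so closely in sequence that reads can be shared.

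Among the genes with the largest rises that no list held, ITGBL1, a secreted protein with integrin-like repeats, was at 0.188 and 0.194 CPM in ITGB4-high cells and 44.9, 43.95 and 44.99 CPM in lung-recovered cells, a log2 difference of 7.83 (SE 0.15, adjusted p = 1.05e-17 by edgeR). IGFBP3, which binds insulin-like growth factors, rose from 0.226 and 0.272 CPM to 18.5, 13.4 and 19.9 CPM, GJB2, a gap-junction connexin, from 0.301 and 0.311 CPM to 17.5, 20.7 and 16.9 CPM, and PTGES, a prostaglandin E synthase, from 1.17 and 0.855 CPM to 31.3, 34.8 and 32.5 CPM. For these 4 genes the dish-grown clone was between the groups: 3.78 ± 0.4302, 1.19 ± 0.303, 2.65 ± 0.554 and 6.87 ± 0.483 CPM. APOE, a lipid carrier, rose from 0.376 and 0.272 CPM to 10.7, 10.7 and 10.6 CPM while the dish-grown clone stayed at 0.296 ± 0.06396 CPM. STAT5A, a signal transducer of cytokine receptors named after its values were seen, was arranged alike, from 0.789 and 0.388 CPM to 13.6, 16.1 and 15.02 CPM, with 0.333 ± 0.158 CPM in the dish. ASTN1, a neuronal membrane protein, rose from 0.1504 and 0.311 CPM to 11.5, 9.69 and 10.3 CPM.

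Among the largest falls, NUP210 (chr3:13316235-13420309), a membrane protein of the nuclear pore, went from 59.1 and 53.2 CPM to 1.34, 1.796 and 1.35 CPM, a log2 difference of -5.24 (SE 0.11, adjusted p = 2.79e-17 by edgeR). HTATIP2, an oxidoreductase that has been linked to suppression of metastasis, fell from 18.9 and 17.4 CPM to 0.335, 0.378 and 0.113 CPM. KDELC2, a protein O-glucosyltransferase, fell from 12.4 and 12.6 CPM to 0.2097, 0.142 and 0.225 CPM, in a chromosome 11 bin with a median of -0.66. RASIP1 fell from 25.2 and 21.2 CPM to 0.671, 0.567 and 0.789 CPM, FOXQ1, a forkhead transcription factor, from 21.1 and 23.9 CPM to 1.34, 1.51 and 1.35 CPM and OLAH, a thioesterase of fatty acid synthesis, from 103 and 102 CPM to 9.39, 10.7 and 12.4 CPM. Every lung-recovered library was below every ITGB4-high library for these 6 genes, and the dish-grown clone was low as well, from 0.127 ± 0.118 CPM for NUP210 to 14.2 ± 1.04 CPM for OLAH. The non-coding RNA LINC02154, the pseudogene NBEAP1, TMEM63C and RIMKLB completed the 15 largest falls, with log2 fold changes from -4.66 to -3.17.

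Part of the comparison followed position along the chromosomes. Genes were grouped in 10 Mb bins, of which 257 held at least 20 tested genes, and 23 bins had a median log2 fold change beyond 0.3 in either direction (15 above and 8 below, 1002 genes). The first 20 Mb of chromosome 17 stood out. In 0 to 10 Mb 144 of 165 genes were called higher (87.3%, against 27.0% of all genes tested) and 0 lower (against 25.9%), with a median of 0.80. In 10 to 20 Mb 61 of 74 were higher (82.4%) and 4 lower (5.4%), with a median of 0.81. In the first of these bins edgeR at an unadjusted p under 0.05 and DESeq2's Wald test also had 0 lower genes, and AURKB, RPA1 and XAF1 are among its genes. On chromosome 11 the bin 100 to 110 Mb had a median of -0.66 and the bin 120 to 130 Mb one of 0.43. On chromosome 18 the bin 40 to 50 Mb was at -0.58, between bins at 0.33 and 0.36. Bins of distal chromosome 3 (160 to 180 and 190 to 200 Mb) ran from -0.31 to -0.43 and include B3GALNT1 and HES1. Bins beyond 0.3 also lay elsewhere on chromosomes 3 and 18 and on chromosomes 2, 5, 6, 7 and 13. They include 110 to 120 Mb of chromosome 13 (0.49), 150 to 160 Mb of chromosome 7 (0.38) and 70 to 80 Mb of chromosome 18 (0.38). Further ones were 50 to 60 Mb of chromosome 5 (0.35), 120 to 130 Mb of chromosome 3 (-0.35) and 10 to 20 Mb of chromosome 6 (-0.31). The bins not beyond 0.3 had medians from -0.28 to 0.28. In the fit of all 8 libraries the dish-grown clone, compared with the same ITGB4-high libraries, had medians of 0.74 and 0.77 in the 2 chromosome 17 bins and of -0.51 in the chromosome 11 bin. DNA copy number was not measured.

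**Figure D4:**
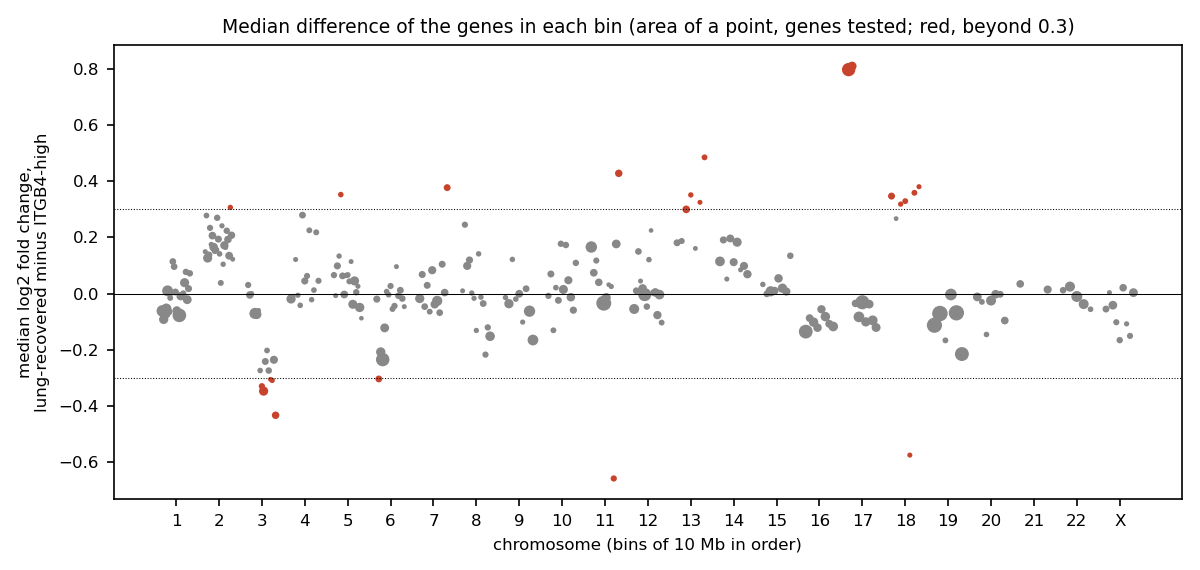
Each point is a 10 Mb bin with at least 20 tested genes, in order along chromosomes 1 to 22 and X, with the median log2 fold change of its genes, lung-recovered minus ITGB4-high, on the vertical axis and an area that grows with the number of genes. Red bins lie beyond 0.3 (dotted lines). The pair of bins at 0.80 and 0.81 is the start of chromosome 17, and the lowest bins are on chromosomes 11 (-0.66) and 18 (-0.58).

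Most defining markers of lung and blood cells were at or near 0 in the lung-recovered libraries. Of 20 macrophage and myeloid markers 8 were at 0 in all 3 libraries and 17 under 1 CPM, including the C1Q genes, LYZ, TYROBP and SPI1 at 0. Of the 5 that were tested 3 were called higher (60%, against 27.0% of all genes tested), PTPRC, CD68 and MARCO, and 1 lower (20%, against 25.9%), S100A9. CD68, a lysosomal protein, rose from 3.05 and 2.37 CPM to 4.74, 4.395 and 5.63 CPM, in the chromosome 17 bin with a median of 0.80, and stood at 4.19 ± 0.242 CPM in the dish-grown clone. MARCO, a scavenger receptor, rose from 0.9398 and 0.505 CPM to 1.51, 1.28 and 1.58 CPM, a call lost without ITGB4-high replicate 2 (edgeR adjusted p = 0.154), and was at 0.788 ± 0.231 CPM in the dish-grown clone. The summed level of the 20 markers was 4.51 to 5.68 CPM in ITGB4-high cells, 8.41 to 9.80 CPM in lung-recovered cells and 7.14 to 7.55 CPM in the dish-grown clone. PTPRC, the leukocyte antigen CD45, had 0 counts in ITGB4-high cells and 0.587, 1.04 and 0.714 CPM in lung-recovered cells, at least 13.4-fold higher, but the dish-grown clone had as much (0.864 ± 0.1802 CPM). Of 13 lymphocyte markers 9 were at 0 and 12 under 1 CPM, with a sum of 5.79 to 6.80 CPM against 9.95 to 12.6 CPM, nearly all of it IL7R. IL7R, an interleukin receptor, was at 6.73 and 5.52 CPM and 12.2, 12.5 and 9.84 CPM, and at 2.27 ± 0.564 CPM in the dish-grown clone.

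Of 14 lung epithelium markers 7 were at 0 and 11 under 1 CPM. The surfactant genes SFTPA1 and SFTPD and the secretoglobins were at 0 in these 3 libraries. Their sum of 36.7 to 38.4 CPM, against 4.08 to 4.55 CPM in ITGB4-high cells, came almost wholly from ABCA3, a lipid transporter, at 33.7, 35.97 and 35.9 CPM against 2.67 and 2.14 CPM, and the dish-grown clone had 31.6 ± 0.8301 CPM of it. The 14 endothelial markers summed to 22.5 to 23.1 CPM in ITGB4-high cells and 22.6 to 24.1 CPM in lung-recovered cells, with 5 at 0 and 11 under 1 CPM. All 3 tested endothelial markers were called, 1 higher (33.3%, against 27.0% of all genes tested) and 2 lower (66.7%, against 25.9%). EGFL7, a secreted vessel factor, rose from 0.789 and 0.505 CPM to 5.41, 6.66 and 7.02 CPM (3.28, SE 0.23), with 6.21 ± 0.239 CPM in the dish-grown clone. The transcription factor gene ERG fell from 18.2 and 18.2 CPM to 13.8, 13.5 and 14.2 CPM, and the receptor gene KDR from 3.76 and 2.99 CPM to 2.64, 2.27 and 2.37 CPM, a call lost without ITGB4-high replicate 1 (edgeR adjusted p = 0.308) or lung-recovered replicate 2 or 3 (0.0892 and 0.0993), with the replicate block (0.126) and by the Wald test of DESeq2 (0.131). The 8 erythroid markers summed to at most 0.0751 CPM in any of the 5 libraries. The reads are from an alignment to the human genome, so mouse RNA is seen only where its sequence resembles a human gene.

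HEPH, an iron oxidase, was among the genes chosen by name and was not called (0.714 and 1.51 CPM against 1.51, 1.61 and 1.73 CPM, overlapping, edgeR adjusted p = 0.136), though leaving out ITGB4-high replicate 2 made it a called rise (1.17, adjusted p = 0.0139). ILDR2, an immunoglobulin-like receptor, rose from 0.113 and 0.311 CPM to 7.003, 8.32 and 6.08 CPM (5.04, SE 0.30), and the dish-grown clone was above both at 30.5 ± 1.19 CPM.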

How the data were processed

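The authors deposited a table of read counts per gene, whole numbers keyed by Ensembl gene ID, with 1 column per library. Per the labels' protocols, RNA was extracted with an RNeasy Micro kit, and libraries were made with the Watchmaker mRNA kit by oligo-dT selection with dUTP strand marking. STAR 2.7.1a and the hg38 build are named in the submitters' processing notes. For the counting tool, its strand setting and the annotation release, each is not given in the sources used, so overlapping and antisense genes may share reads. Symbols, coordinates and gene types came from GENCODE 29, which matched 58216 of 58336 IDs. Of 1003 entries in the gene lists, 989 matched a gene in the table.

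The groups were taken from the labels. ITGB4-high (n = 2) and lung-recovered (n = 3) libraries were fitted alone in edgeR 4.0.16 (R 4.3.3) after filterByExpr and TMM scaling, and tested by quasi-likelihood. Benjamini-Hochberg adjustment ran over the 14894 genes tested. The residual degrees of freedom were 3 and the common biological coefficient of variation was 0.0422. CPM of the dish-grown clone used the scaling of a fit of all 8 libraries. Ratios for genes with 1 to 3 counts in a group carry exact 95% intervals for counting error, and genes with 0 counts were set against a floor of 3 counts over the group. Replicates of a group differed beyond counting noise (1.57 to 5.86 in chi-square per degree of freedom) and each was kept. The procedure was tested on simulated data.

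The text names a set of genes chosen by hand, the 15 largest rises and 15 largest falls among genes reaching 10 CPM in a group with no overlap, at most 3 members of each list in each direction, genes near 0 in a group, and a few said to be named after their values were seen. The comparison, the hand-chosen genes and the 37 lists, 6 of them markers of other cell types, were chosen with earlier results of these data known. The alternatives were limma-voom (limma 3.58.1), DESeq2 1.42.0 (Wald test and size factors), upper-quartile scaling, other filters, all 8 libraries, a replicate block, leaving out genes of shifted 10 Mb bins, and leaving out each library. Promoters came from RefSeq (GRCh38.p14). Results of a few genes and 1 gene list are not reported here.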

Additional observations from a re-analysis of the deposited data

How the results depend on the processing

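Under all 14 alternatives the counts of called genes stayed within 1.5 times those reported. Without 1 library, 3585 to 3759 genes were higher, 3332 to 3616 lower, 1117 to 1175 higher by 2-fold or more and 384 to 390 lower by as much. DESeq2's Wald test called 3423 higher and 3355 lower. A filter of at least 1 CPM in at least 2 libraries left 894 and 282 past 2-fold, and no filter gave 1354 and 479. Same-numbered libraries had correlations of -0.056 and -0.087 in their deviations from the group means. The 2 ITGB4-high libraries deviate as mirror images, so this check cannot settle whether the numbers pair libraries. With the replicate number as a block 3409 genes were higher and 3062 lower. In that blocked fit 11 of the genes chosen by the naming rules lost their call. They include VIM (edgeR adjusted p = 0.235), PKP3 (0.145), KDR (0.126), IFIH1 (0.111), SNAI1 (0.0931), BST2 (0.0581) and NFKBIA (0.0557). Several list counts fell by more than 1.5 times. Counts of higher genes went from 8 to 5 for WNT and from 10 to 6 for nuclear oxidative phosphorylation. Counts of lower genes went from 18 to 11 for nuclear oxidative phosphorylation, 10 to 5 for mitosis and 9 to 5 for immediate-early genes. They also went from 5 to 3 for collagen processing, 4 to 2 for mesenchymal and 3 to 1 for interferon-stimulated genes. Epithelial junction genes went from 2 to 1 lower and NF-kB genes from 1 to 0. Of 227 genes that the naming rules chose, 205 kept their side of the threshold and their sign in every alternative, 18 called genes lost their call in at least 1, and 0 called genes changed sign. Only genes that were not called changed sign: ITGB4 turned to 0.000232 with upper-quartile scaling and 0.00090 without the shifted bins, and ran from -0.0925 without ITGB4-high replicate 2 to 0.0702 without ITGB4-high replicate 1. CSF3 turned to -0.0507 with the block and ran from -0.0495 to 0.0804 when lung-recovered replicate 3 or 1 was left out, and SNAI2 ran from -0.147 to 0.0319 when ITGB4-high replicate 1 or 2 was left out. The cause of these changes was not tested. With 2 ITGB4-high libraries and 3 residual degrees of freedom, small differences rest on few samples, and for genes under 1 CPM depth limits the fold that can be measured.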
